A study of Mus musculus with 25 samples.

Results

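The clustered protocadherin genes of the mouse lie on chromosome 18 in 3 neighbouring sub-clusters, Pcdha, Pcdhb and Pcdhg. Their DNA methylation was read at the CpGs that start between 37085000 and 38005000 on chromosome 18 (mm9), with Pcdha up to 37350000, Pcdhb from 37400000 to 37670000 and Pcdhg from 37810000. The position of a CpG was the only criterion, and no methylation value was used to choose it. Of 1587545 CpGs with at least 5 reads in at least 1 library of the series, 1057 lay in the region. Pcdha held 278 of them, Pcdhb 156 and Pcdhg 473, with 18 more between Pcdha and Pcdhb and 132 between Pcdhb and Pcdhg. In all 25 libraries at once, 347 of these CpGs had at least 5 reads, of which 72 lay in Pcdha, 56 in Pcdhb, 60 between Pcdhb and Pcdhg and 156 in Pcdhg. The region's other CpGs fell short of 5 reads in at least 1 library and entered only the comparisons whose libraries covered them.

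The 25 libraries were made by reduced representation bisulfite sequencing (RRBS) of haematopoietic stem cells (HSCs), the cells that renew themselves and form all blood lineages, from C57Bl/6 mice. RRBS cuts DNA with a restriction enzyme, so that CpG-rich fragments are read, and bisulfite turns unmethylated cytosine into a base read as thymine. The question the design poses is how methylation differs over ontogeny and after a history of enforced division. Values are the percentage of reads that were methylated, and points are differences of such percentages.

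Of the 12 groups, the fetal HSCs came from fetal liver at e14.5 (n = 2), the young HSCs from bone marrow at 3.5 months (n = 2) and the old HSCs from bone marrow at 25 months (n = 2). Tissue and age thus differ together between fetal and young HSCs and cannot be told apart. The 5-fluorouracil (5-FU) set is labelled 3.5 months plus 6 months and had no dose (0 doses, n = 3), 2 doses (n = 3) or 4 doses (n = 2) of that drug, a compound that kills dividing cells and after which surviving HSCs divide. The transplanted groups are HSCs recovered after transplantation of 10 (n = 3), 50 (n = 1) or 500 (n = 1) young HSCs or of 10 (n = 2), 50 (n = 1) or 500 (n = 3) old HSCs. The labels do not name the recipients or the time after transplantation. Every group is described as HSCs, and that identity was not checked, because only methylation was read.

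Clustered protocadherins are cell adhesion proteins best known from neurons. In neurons each cell uses a small, partly random choice of the many variable first exons, and each of these exons has its own promoter with a CpG island. The combination on the cell surface serves self-recognition between neurites. Methylation of these promoters is linked to the DNA methyltransferase Dnmt3b and to the chromatin protein Smchd1, and in most tissues outside the nervous system the genes are little expressed. Expression was not measured in these libraries. The variable exons are near copies of each other, and how the authors treated reads that match several copies is not given in the sources used here. Tiles are given below by position, since no mm9 annotation was used to tie them to single exons.

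Coverage of the region was not equal between libraries. A library had between 577 and 935 CpGs of the region at 5 or more reads, and the median depth of the 347 CpGs was 16 to 101 reads. The least covered library was 4 doses of 5-FU replicate 2, and the young libraries were the deepest. The labels do not tell whether the replicates of a group are different animals. The p-values therefore speak only of the spread between libraries, which may be technical. Over all 568553 autosomal CpGs with 5 reads everywhere, the mean level was 39.2% to 41.9% in the libraries that were not transplanted and 36.3% to 38.7% in the transplanted ones.

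Protocadherin CpGs differed from the rest of the autosomes in how often they were partly methylated. Averaged over the 25 libraries, 71.8% of the Pcdhg CpGs (112 of 156) lay between 20% and 80%, against 11.4% of all autosomal CpGs. In Pcdhb the share was 53.6% (30 of 56), and in Pcdha it was 37.5% (27 of 72). Among all autosomal CpGs, 53.2% lay under 20% and 35.5% at 80% or more. In Pcdhg those shares were 16.7% and 11.5%. A bulk value between these classes does not tell whether each cell is partly methylated or a part of the cells is fully methylated.

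**Figure D1:**
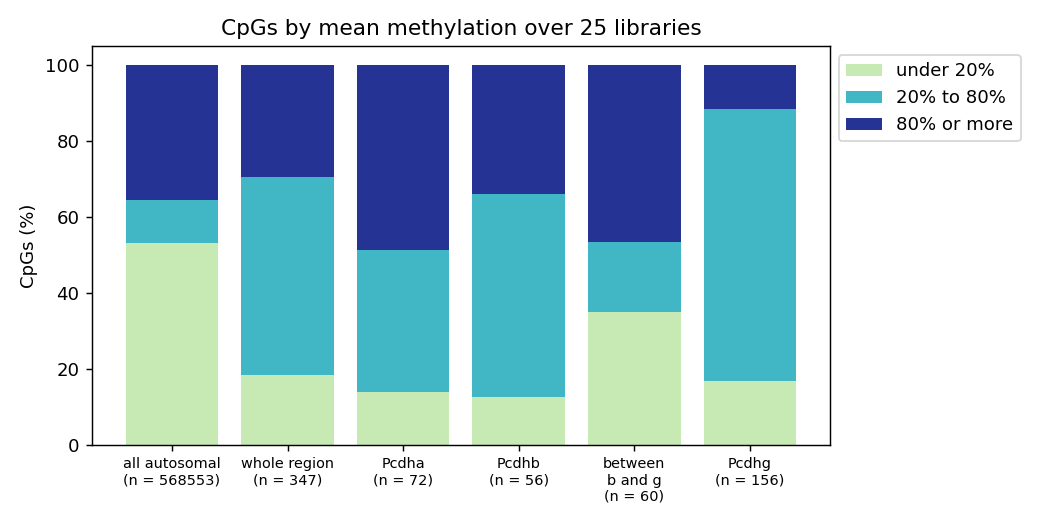
Share of CpGs (%, vertical axis) under 20%, from 20% to 80% and at 80% or more, by their mean methylation over the 25 libraries, for all autosomal CpGs and for the region and its sub-clusters. The middle class holds 71.8% of the Pcdhg CpGs and 11.4% of all autosomal CpGs.

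The same held in windows of 1000 bp, called tiles here, in which the reads of at least 3 covered CpGs were summed. Of the 50 region tiles covered in all 25 libraries, 24 lay in Pcdhg, and 21 of these (87.5%) had a mean between 20% and 80%, against 15.2% of 53794 tiles on all autosomes. The exceptions in Pcdhg were the tile chr18:37876001-37877000 at 90.0%, the tile chr18:37967001-37968000 at 12.6% and the tile chr18:37966001-37967000, which had a mean of 0.364% over 7 CpGs and never exceeded 3.01% in any library. The most CpG-rich tile of the region, chr18:37803001-37804000 just before Pcdhg, held 21 CpGs and read 0.482% on average, with 2.25% as its highest library. Unmethylated and partly methylated tiles thus occurred within the same region.

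**Figure D2:**
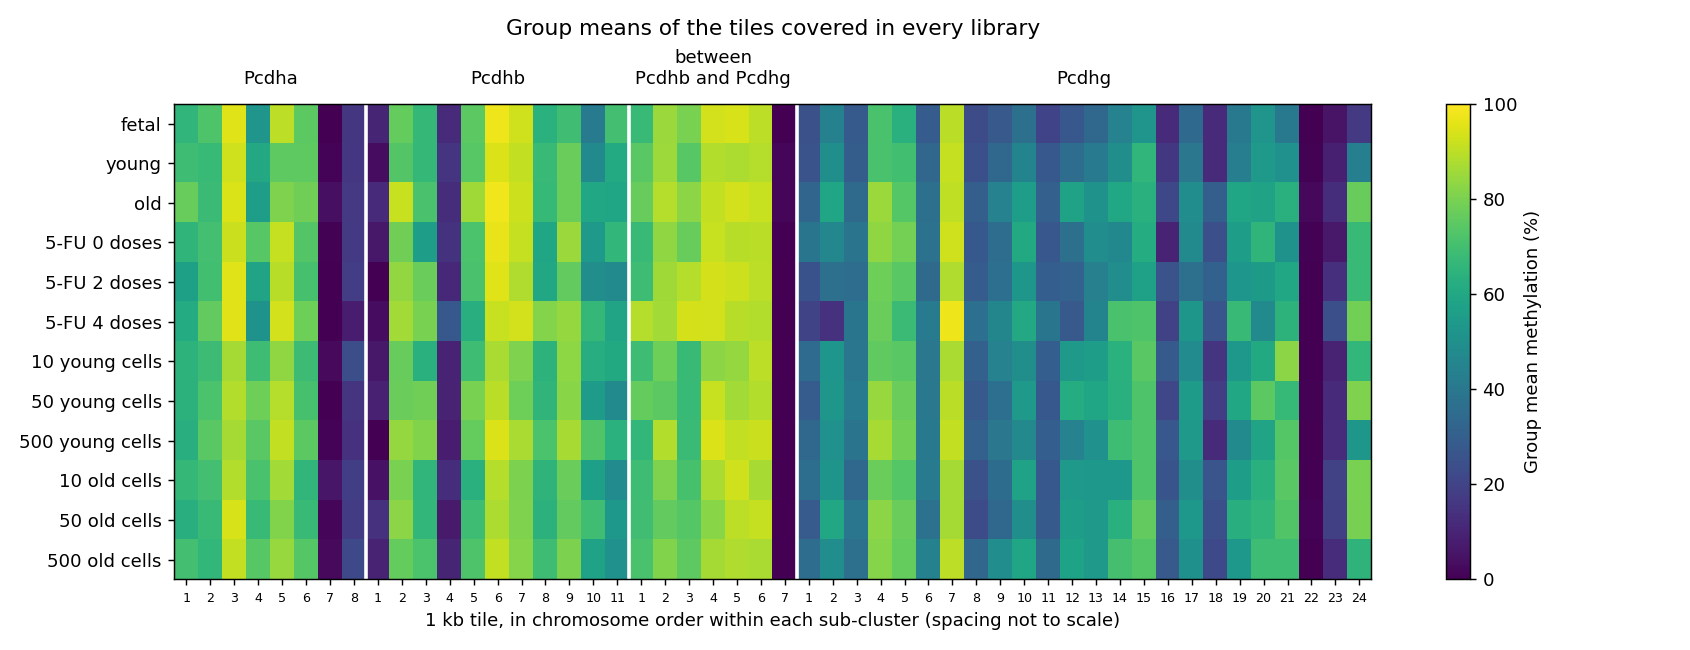
Group mean methylation (colour, %) of the 50 tiles covered in every library, in chromosome order (horizontal axis) for the 12 groups (rows). Most of the 24 Pcdhg tiles have middle levels, the fetal row is the darkest in 17 of them, and tile 22 of Pcdhg stays near 0 in all rows.

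Pcdhg was the sub-cluster whose level differed most between groups. Over its 156 common CpGs, the fetal libraries read 37.2% and 34.6%, the young libraries 38.6% and 41.3%, and the old libraries 48.0% and 49.9%. The 3 groups did not overlap and stood in the order of age, an order that reversed (old minus young -5.60 points, young minus fetal -3.37 points) when each library's level at 4 very CpG-rich tiles was taken out as an offset. Those 4 tiles hold 30 or more CpGs each, lie outside the region and read between 20% and 80% in every library. The 0-dose libraries read 43.0%, 46.0% and 46.4%, the 2-dose libraries 42.9%, 41.5% and 44.9%, and the 4-dose libraries 46.7% and 50.2%. All of them lay above both young libraries, by as little as 41.5% against 41.3%. Over each library's own Pcdhg CpGs with 5 or more reads, the 5-FU set overlapped the young libraries. There, young replicate 2 read 43.8%, above 0-dose replicates 1 and 3 at 41.1% and 43.6%. After transplantation, the 10 young cell libraries read 46.3%, 49.6% and 48.9%, the 50 and 500 young cell libraries 49.7% and 46.7%, and those from old cells between 47.4% and 50.9%. Every transplanted library, from young or old donors, thus lay above both young libraries.

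As group means, Pcdhg was lowest in fetal HSCs, at 35.9% ± 1.86 (SD, n = 2), followed by young HSCs at 39.9% ± 1.92 (n = 2). The 2-dose group at 43.1% ± 1.70 (n = 3) and the 0-dose group at 45.1% ± 1.86 (n = 3) came next and overlapped. The other 8 groups had means of 46.7% to 50.2%, and they overlapped or held a single library. These levels are a description with no test, since the members were proposed with results known.

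Pcdha and Pcdhb did not show that order. Pcdha had group means of 64.3% (50 old cells) to 69.0% ± 0.909 (4 doses, n = 2), with young HSCs at 64.5% ± 1.37 (n = 2) below fetal HSCs at 67.3% ± 0.572 (n = 2). In Pcdhb the fetal libraries read 62.8% and 67.5%, and the young libraries 65.6% and 64.4%, which overlapped. Old HSCs in Pcdhb read 69.8% ± 1.20 (n = 2), and the lowest group was 10 old cells, at 60.5% ± 1.01 (n = 2).

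**Figure D3:**
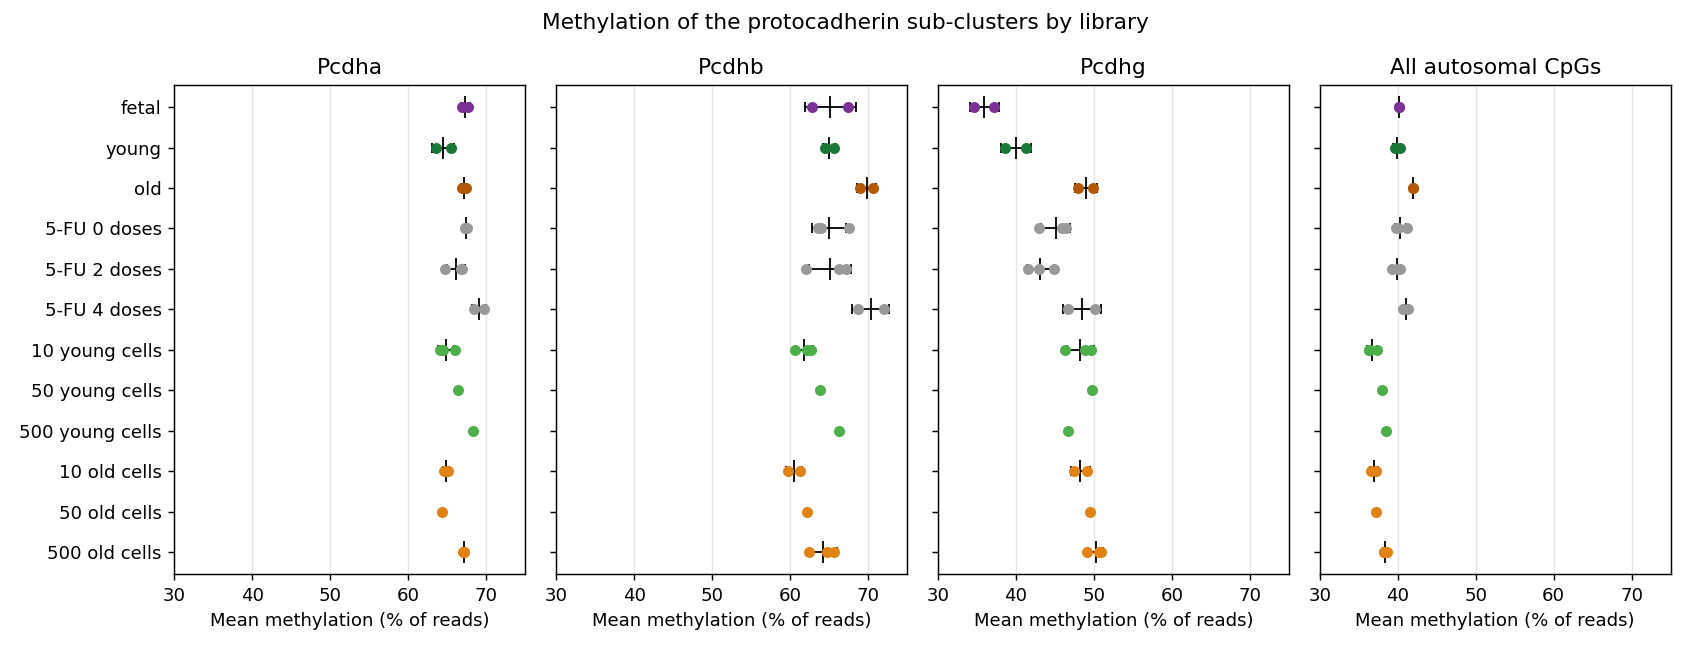
Mean methylation (% of reads, horizontal axis) of each library (points) over the CpGs common to all 25 libraries, with the group mean (tick) and SD (bar), for Pcdha, Pcdhb, Pcdhg and all autosomal CpGs. In Pcdhg the fetal and young libraries lie at 34.6% to 41.3%, below all others, with no offset per library taken out.

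For the tests, tiles were fitted with a quasi-binomial model over all autosomes and the Benjamini-Hochberg adjustment of p-values ran over every tile of the fit. A tile counts as called at an adjusted p under 0.05 and a difference of at least 10 points. Some comparisons share libraries: young HSCs serve old against young, 0 doses against young and 10 young cells against young, old HSCs serve both comparisons of old cells, and the 0-dose libraries serve both comparisons of 5-FU doses. Differences in these comparisons are therefore not independent of each other.

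Between fetal and young HSCs, most Pcdhg tiles had a higher value in young HSCs, but few passed the test. Of 94 region tiles tested, 3 gained methylation, all in Pcdhg, where the background was 1.99% of 100896 tiles, and 2 lost methylation, where it was 3.98%. Both shares are near the background. Over the 42 Pcdhg tiles the median difference was 4.02 points, and 33 were higher in young HSCs, against a median of 0.18 points over all tiles. Pcdha had a median of 0.22 points over 22 tiles and Pcdhb of -1.09 points over 20 tiles. Of the 156 Pcdhg CpGs common to all libraries, 45 (28.8%) were higher in both young than in both fetal libraries, against 20.4% of all autosomal CpGs, and 19 (12.2%) were lower, against 13.8%. In Pcdha the shares were 6.94% higher and 26.4% lower. Here and below, shares of single CpGs are set against all autosomal CpGs, not against CpGs of like level.

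The largest gain in that comparison lay at the far end of the region. The tile chr18:38002001-38003000, number 24 of the Pcdhg tiles drawn, read 16.1% and 17.6% in the fetal and 47.6% and 50.7% in the young libraries. The gain of 32.3 points had an adjusted p of 7.64e-05 (quasi-binomial fit), and each of its 6 CpGs was higher in both young libraries than in both fetal ones. Depth there was 182 to 590 reads per library. The tile chr18:37922001-37923000 rose from 57.6% and 67.6% to 75.9% and 80.5% (adjusted p = 0.0342). The tile chr18:37981001-37982000 rose from 63.7% and 69.5% to 79.4% and 84.8% (adjusted p = 0.0321), but with each of its 9 CpGs weighted equally the difference was 8.34 points and the groups overlapped.

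Of the 2 losses, that in Pcdha was the better covered. The tile chr18:37197001-37198000, number 5 of the Pcdha tiles drawn, read 93.0% and 88.4% in fetal and 73.9% and 74.3% in young HSCs over 613 to 1706 reads. The loss of -16.6 points had an adjusted p of 0.00179, and 18 of its 23 CpGs were lower with no overlap. Over the 17 CpGs common to all libraries, the other groups read between 80.6% (old) and 93.0% (4 doses), so that young HSCs were the lowest of all groups there. In Pcdhg, the tile chr18:37822001-37823000 read 85.4% and 91.3% in fetal and 73.8% and 56.9% in young HSCs over 3 CpGs (adjusted p = 0.00898). The count of 5 tiles fell to 2 without fetal replicate 1, to 3 without young replicate 1 and to 2 without its partner, young replicate 2. It was 2 with limma on arcsine-transformed levels and 3 at 10 or more reads per CpG.

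Without an offset per library, the fetal libraries stood apart from the whole series in part of Pcdhg. Fetal HSCs had the lowest group mean in 17 of the 24 Pcdhg tiles (70.8%), against 11.3% of all tiles covered in all 25 libraries. In 6 of the 24, both fetal libraries lay below all 23 others, where the background was 2.43% of tiles. Those 6 were the tiles that start at 37841001, 37886001, 37890001, 37897001, 37926001 and 38002001, chosen after their values were seen. In no region tile did both fetal libraries lie above all others, where the background was 1.46%. These backgrounds were not matched by level. At the 4 very CpG-rich tiles outside the region, the fetal libraries also read lowest, at 31.3% and 31.6% against 37.0% to 63.2%. At 107 tiles of middle level with 10 or more CpGs outside the region, they read 44.5% and 44.8%. That was above both young libraries, at 43.6% and 44.0%.

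Between young and old HSCs, the called tiles of the region were gains, and all lay in Pcdhg. Of 94 region tiles 8 gained (background 3.56% of 100896) and 0 lost by the quasi-binomial fit (background 0.23%), with 24 tiles at an unadjusted p under 0.05. In Pcdhg, 8 of 42 tiles passed and 39 had a higher value in old than in young HSCs. The Pcdhg median was 6.50 points. The medians were 4.49 points in Pcdha and 3.87 points in Pcdhb, where no tile passed, and 1.54 points over all tiles. Over all tiles, too, gains made up 93.9% of those called.

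The largest of these gains was again the tile chr18:38002001-38003000, which rose from 47.6% and 50.7% in young to 79.2% and 74.7% in old HSCs (27.8 points, adjusted p = 0.00128). Within that tile the CpGs differed unequally. The CpG at 38002283 read 35.7% ± 0.634 in young and 68.5% ± 2.62 in old HSCs, and the CpG at 38002348 read 49.3% ± 0.956 and 85.8% ± 1.29 (n = 2 each). The CpG at 38002274, by contrast, was already at 87.4% ± 0.623 in young HSCs, from 35.6% ± 1.12 in fetal HSCs, and read 90.0% ± 0.378 in old HSCs.

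The tile chr18:37849001-37850000 read 33.6% and 20.3% in young and 49.3% and 54.5% in old HSCs (adjusted p = 0.0261) over 3 CpGs and as few as 75 reads in these libraries. The tile chr18:37915001-37916000 rose from 23.7% and 27.0% to 42.8% and 55.6% (adjusted p = 0.00276) over 6 CpGs. The 5 further gains were of 13.9 to 21.8 points. They included the tile chr18:37892001-37893000, number 12 of the Pcdhg tiles drawn, with 35.9% ± 5.13 in young and 57.7% ± 0.815 in old HSCs (n = 2 each). With every CpG of a tile weighted equally, 7 of the 8 gains were still at least 10 points and the eighth, at chr18:37845001-37846000, was 9.71 points.

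Single CpGs gave the same direction. Of the 156 Pcdhg CpGs common to all libraries, 65 (41.7%) were higher in both old than in both young libraries and 2 were lower, against 23.4% and 9.01% of all autosomal CpGs. The shares that were higher were 42.9% in Pcdhb and 30.6% in Pcdha. Tiles with a middle level were also called often elsewhere. Fetal HSCs, which do not enter this comparison, were used to class tiles by level. Of those at 20% to 80% there, 11.8% of all tiles and 5 of 28 Pcdhg tiles gained. Over the whole region 5 of 60 such tiles (8.33%) gained, with 0 of 14 in Pcdha and 0 of 14 in Pcdhb. Among tiles of that level with 10 or more CpGs, 21.8% of all tiles and 3 of 8 Pcdhg tiles gained. Among those with fewer, the values were 11.2% and 2 of 20. Of tiles under 20% in fetal HSCs, 1.87% of all and 3 of 10 Pcdhg tiles gained. At 80% or more, 2.02% of all and 0 of 4 Pcdhg tiles gained.

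The old libraries also read higher at CpG-rich tiles of middle level outside the region. At 107 such tiles with 10 or more CpGs, the young libraries read 43.6% and 44.0% and the old libraries 51.3% and 52.5%. With that shift taken out as an offset per library, the Pcdhg difference of 9.03 points between old and young HSCs was 0.63 points, and 1 region tile was called, the gain at 38002001. Gains then made up 65.6% of all called tiles. With the offset from the 4 very CpG-rich tiles they made up 27.7%, and the 3 region tiles called were losses in Pcdha and Pcdhb. The count of 8 was 0 with limma. It was 0 without old replicate 1 and 1 without old replicate 2, and 2 or 5 when young replicate 1 or 2 was left out.

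**Figure D4:**
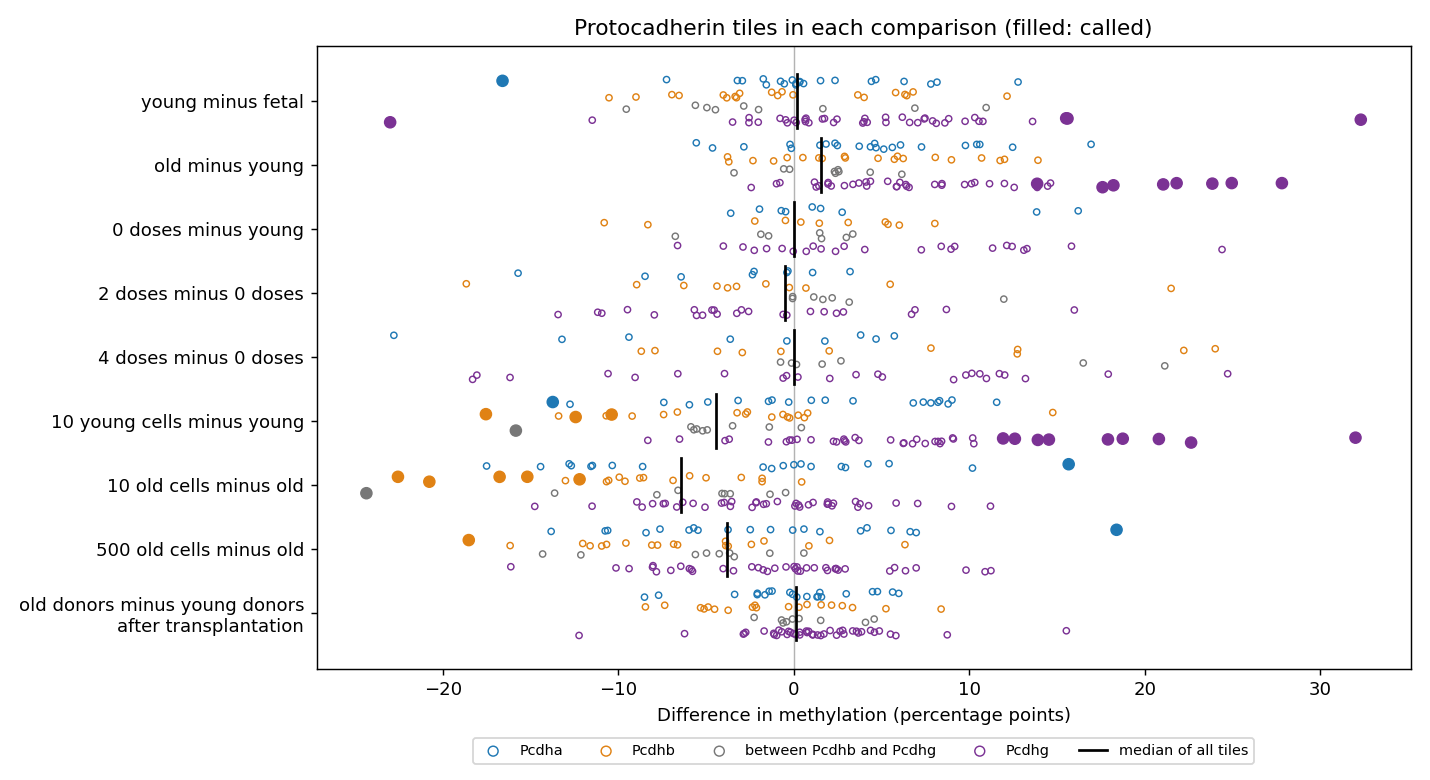
Difference in methylation (percentage points, horizontal axis) of each tested tile of the sub-clusters (points, by colour) in the 9 comparisons (rows), with called tiles filled and the median of all autosomal tiles as a black line. The called tiles of old against young are all Pcdhg gains, and those of 10 young cells are Pcdhg gains and losses elsewhere, without any offset. Under the offset from the 4 very CpG-rich tiles, 9 Pcdhg tiles were losses and 1 was a gain after 10 young cells. No Pcdhg tile was then called in old against young, where 2 Pcdha tiles and 1 Pcdhb tile were losses. The 1 tile between Pcdha and Pcdhb is not drawn.

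After 5-FU, no region tile was called. For 0 doses against young HSCs, 0 of 51 region tiles passed the quasi-binomial fit (background 0.014% of 57204 tiles) and 0 passed limma, with 3 at an unadjusted p under 0.05. The groups differ in the 6 more months of the 0-dose mice and in depth, which cannot be told apart. The median was 43 and 54 reads per CpG in the young libraries and 10 to 13 in the 0-dose libraries. The Pcdhg level was 5.18 points higher in the 0-dose libraries, without overlap over the common CpGs but with overlap over each library's own. With the offset from CpG-rich tiles taken out, the difference was -0.97 points. The tile with the largest difference was again chr18:38002001-38003000, here over 3 CpGs, with 44.4% and 42.2% in young and 68.3%, 71.6% and 63.3% in 0-dose HSCs (24.4 points, adjusted p = 0.682). All 0-dose libraries lay above both young ones there, at 88 to 405 reads. At single CpGs, 35 of 156 in Pcdhg (22.4%) were higher in all 0-dose than in both young libraries, against 9.25% of all autosomal CpGs, and 11 (7.05%) were lower, against 12.6%. These backgrounds were not matched by level, as 71.8% of Pcdhg CpGs but 11.4% of all lay between 20% and 80%.

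For 2 against 0 doses, 0 of 51 region tiles passed the quasi-binomial fit (background 0.00524%) and 0 passed limma, with 5 at an unadjusted p under 0.05. The largest difference was at chr18:37445001-37446000 in Pcdhb, where the 0-dose libraries read 49.3%, 65.8% and 52.2% and the 2-dose libraries 83.6%, 70.8% and 77.5% (adjusted p = 1.0). For 4 against 0 doses, 0 of 51 passed the quasi-binomial fit (background 0.00175%), with 7 at an unadjusted p under 0.05, and limma called 1 tile, a gain of 16.5 points at chr18:37724001-37725000 between Pcdhb and Pcdhg (adjusted p = 0.0429). The largest difference by the quasi-binomial fit was at chr18:37903001-37904000 in Pcdhg, with 50.3%, 51.8% and 37.5% in 0-dose and 62.2% and 80.3% in 4-dose libraries (adjusted p = 0.539). The library at 80.3% was 4 doses replicate 2, which had 61 reads there.

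Few single Pcdhg CpGs separated 2 from 0 doses, and more separated 4 from 0 doses. In Pcdhg, 5 of 156 CpGs (3.21%) were higher in all 2-dose than in all 0-dose libraries and 12 (7.69%) were lower, against 2.67% and 4.26% of all autosomal CpGs. With 4 against 0 doses, 23 (14.7%) were higher and 16 (10.3%) lower, against 8.18% and 4.96%. Both directions were thus above the background in 4-dose HSCs, the group with the least covered library.

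At Pcdhb tile number 4, chr18:37454001-37455000, the 4-dose libraries stood above every other library over the CpGs common to all libraries. Over 5 CpGs, a set not covered in every library, the old libraries read 37.2% and 46.5%. Over the 4 common CpGs, the 4-dose libraries read 25.8% and 29.4%, and the other 23 libraries read 6.56% to 18.1%. The same held at Pcdhb tile number 8, chr18:37639001-37640000, with 78.8% and 83.7% against 74.8% in the highest other library. These tiles are not the only ones of the region with that order, are described here after their values were seen and were not called.

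After transplantation of 10 young cells, the called Pcdhg tiles were gains while most called tiles elsewhere were losses. Of 88 region tiles 9 gained, all in Pcdhg, where the background was 1.1% of 90382 tiles, and 5 lost, where the background was 17.2%. In Pcdhg 32 of 40 tiles were higher after transplantation, with a median of 6.52 points, against a median of -4.43 points over all tiles. Of the losses, 3 lay in Pcdhb, 1 in Pcdha and 1 between Pcdhb and Pcdhg.

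The largest gain of this comparison was at chr18:37926001-37927000, number 21 of the Pcdhg tiles drawn. It read 48.6% and 52.9% in the young and 71.5%, 84.6% and 92.2% in the 10 young cell libraries (32.0 points, adjusted p = 0.00214), and all 10 of its CpGs were higher. The 3 transplanted libraries spread over more than 20 points there, but none overlapped the young ones. The tile chr18:37854001-37855000 rose from 33.5% and 44.7% to 69.1%, 57.1% and 58.9% (adjusted p = 0.00946). The tile chr18:38002001-38003000 rose from 47.6% and 50.7% to 74.5%, 73.7% and 61.7% (adjusted p = 0.0136).

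Of the losses, the tile chr18:37602001-37603000 in Pcdhb fell from 60.2% and 62.3% to 41.7%, 46.5% and 43.0% (adjusted p = 0.0189). The tile chr18:37735001-37736000 between Pcdhb and Pcdhg fell from 76.6% and 86.6% to 61.0%, 70.1% and 66.2% (adjusted p = 0.0251). In Pcdha the tile chr18:37270001-37271000 fell from 87.2% and 90.5% to 74.3%, 44 of 55 reads and 71.1% in the 3 libraries (adjusted p = 0.0401). The loss at Pcdhb tile 4, of -12.4 points, was -6.26 points with every CpG weighted equally.

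When tiles were classed by old HSCs, a group that this comparison does not use, 7 of the 27 Pcdhg tiles at 20% to 80% gained and 0 lost, against 5.02% and 13.6% of all such tiles. Number of CpGs moved with this. Among such tiles with 10 or more CpGs, 203 of all 1014 gained and 35 lost, and 2 of 8 Pcdhg tiles gained. Among those with fewer than 10 CpGs, 3.59% of all gained and 14.6% lost, and 5 of 19 Pcdhg tiles gained. At single CpGs, 53 of 156 Pcdhg CpGs (34.0%) were higher in all 10 young cell libraries than in both young ones, against 4.42% of all autosomal CpGs, and 8 (5.13%) were lower, against 26.9%.

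The count of 14 rested on both young libraries. It dropped to 1 when young replicate 1 was left out and to 0 when young replicate 2 was, and it was 9 to 10 without any one of the transplanted libraries. With the offset from CpG-rich tiles taken out, the Pcdhg level was 3.05 points higher after 10 young cells, against 8.32 points without it. Under that offset 10 tiles were called, of which 3 of the 9 Pcdhg gains remained, at 37854001, 37926001 and 38002001, and 7 were losses outside Pcdhg. Under the offset from the 4 very CpG-rich tiles, the Pcdhg difference was -10.6 points and 9 Pcdhg tiles were called as losses and 1 as a gain.

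After transplantation of old cells, no Pcdhg tile was called, and Pcdhb tiles were called as losses about as often as all tiles. Under the offset from the 4 very CpG-rich tiles, 4 Pcdhg tiles were called as losses after 10 old cells, and the Pcdhg level difference was -7.79 points in place of -0.70. For 10 old cells against old HSCs, 0 of 40 Pcdhg tiles passed the quasi-binomial fit (2 at an unadjusted p under 0.05, and 1, a loss, by limma), with a median of -1.25 points, against -6.41 points over all tiles. In Pcdhb 5 of 19 tiles were called as losses, near the background of 22.9%, and 18 of 19 had a lower value, with a median of -9.62 points. Over the whole region, 1 of 88 tiles gained (background 0.571%) and 6 lost (background 22.9%), so that losses were not more common than over all tiles. When tiles were classed by young HSCs, which this comparison does not use, 0 of the 29 Pcdhg tiles at 20% to 80% lost methylation, against 25.7% of all such tiles. That share was 11.1% among tiles with 10 or more CpGs, of which 9 lay in Pcdhg, and 27.2% among those with fewer. At single CpGs, 21 of 156 in Pcdhg (13.5%) were higher in both 10 old cell libraries than in both old ones and 40 (25.6%) were lower, against 4.3% and 36.4% of all autosomal CpGs. In Pcdhb, 28 of 56 CpGs were lower.

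The largest loss was at the same tile between Pcdhb and Pcdhg as after 10 young cells, chr18:37735001-37736000. It fell from 83.9% and 79.9% in old to 60.0% and 55.1% after 10 old cells (adjusted p = 0.00979), and with every CpG weighted equally by -16.2 points in place of -24.4. In Pcdhb the tile chr18:37627001-37628000 fell from 96.0% and 90.2% to 61.4% and 79.7% (adjusted p = 0.0275), and the tile chr18:37595001-37596000 from 54.5% and 67.0% to 39.4% and 40.6% (adjusted p = 0.0296). Both comparisons of 10 cells use other untransplanted libraries, so that the tile at 37735001 fell in each against its own control.

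The single gain lay in Pcdha. The tile chr18:37180001-37181000, number 4 of the Pcdha tiles drawn, rose from 59.6% and 51.5% in old to 69.4% and 73.0% after 10 old cells (adjusted p = 0.0487) and to 68.9%, 73.6% and 79.2% after 500 old cells (adjusted p = 0.0312). Both gains are measured against the same old libraries. The library with the lowest level of this tile was 4 doses of 5-FU replicate 2, at 23.0%, while the other library of 4 doses read 79.5%.

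For 500 old cells against old HSCs, that gain and 1 loss were the only called tiles of 88 (background 0.378% gained and 7.96% lost). In Pcdhg the median was 0.05 points over 40 tiles, against -3.82 points over all tiles. There, 27 of 156 CpGs (17.3%) were higher in all 500 old cell libraries than in both old ones, against 3.33% of all autosomal CpGs, and 19 (12.2%) were lower, against 25.6%. The loss was at Pcdhb tile 4, which read 37.2% and 46.5% in old and 24.5%, 26.7% and 18.8% after 500 old cells over 5 CpGs (adjusted p = 0.0226). Its most methylated CpG, at 37454909, took 43.0% of the tile's reads in old and 23.0% in 500 old cell libraries. With every CpG weighted equally the loss was -7.22 points. That tile's summed level thus moved with the share of reads from 1 CpG.

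Those counts also rested on single libraries. Of the 7 tiles for 10 old cells, 0 were called without old replicate 1 and 0 without old replicate 2, 1 without 10 old cells replicate 1 and 2 without replicate 2. Of the 2 tiles for 500 old cells, 0 were called without old replicate 1, 0 without old replicate 2 and 0 without 500 old cells replicate 1. Without replicate 2 of 500 old cells, 1 of the 2 was called, the Pcdhb loss. Without replicate 3, neither was called, and 1 other Pcdhb tile was called as a loss. Limma, by contrast, called 12 and 7 tiles in the 2 comparisons, of which 1 gained in each.

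**Figure D5:**
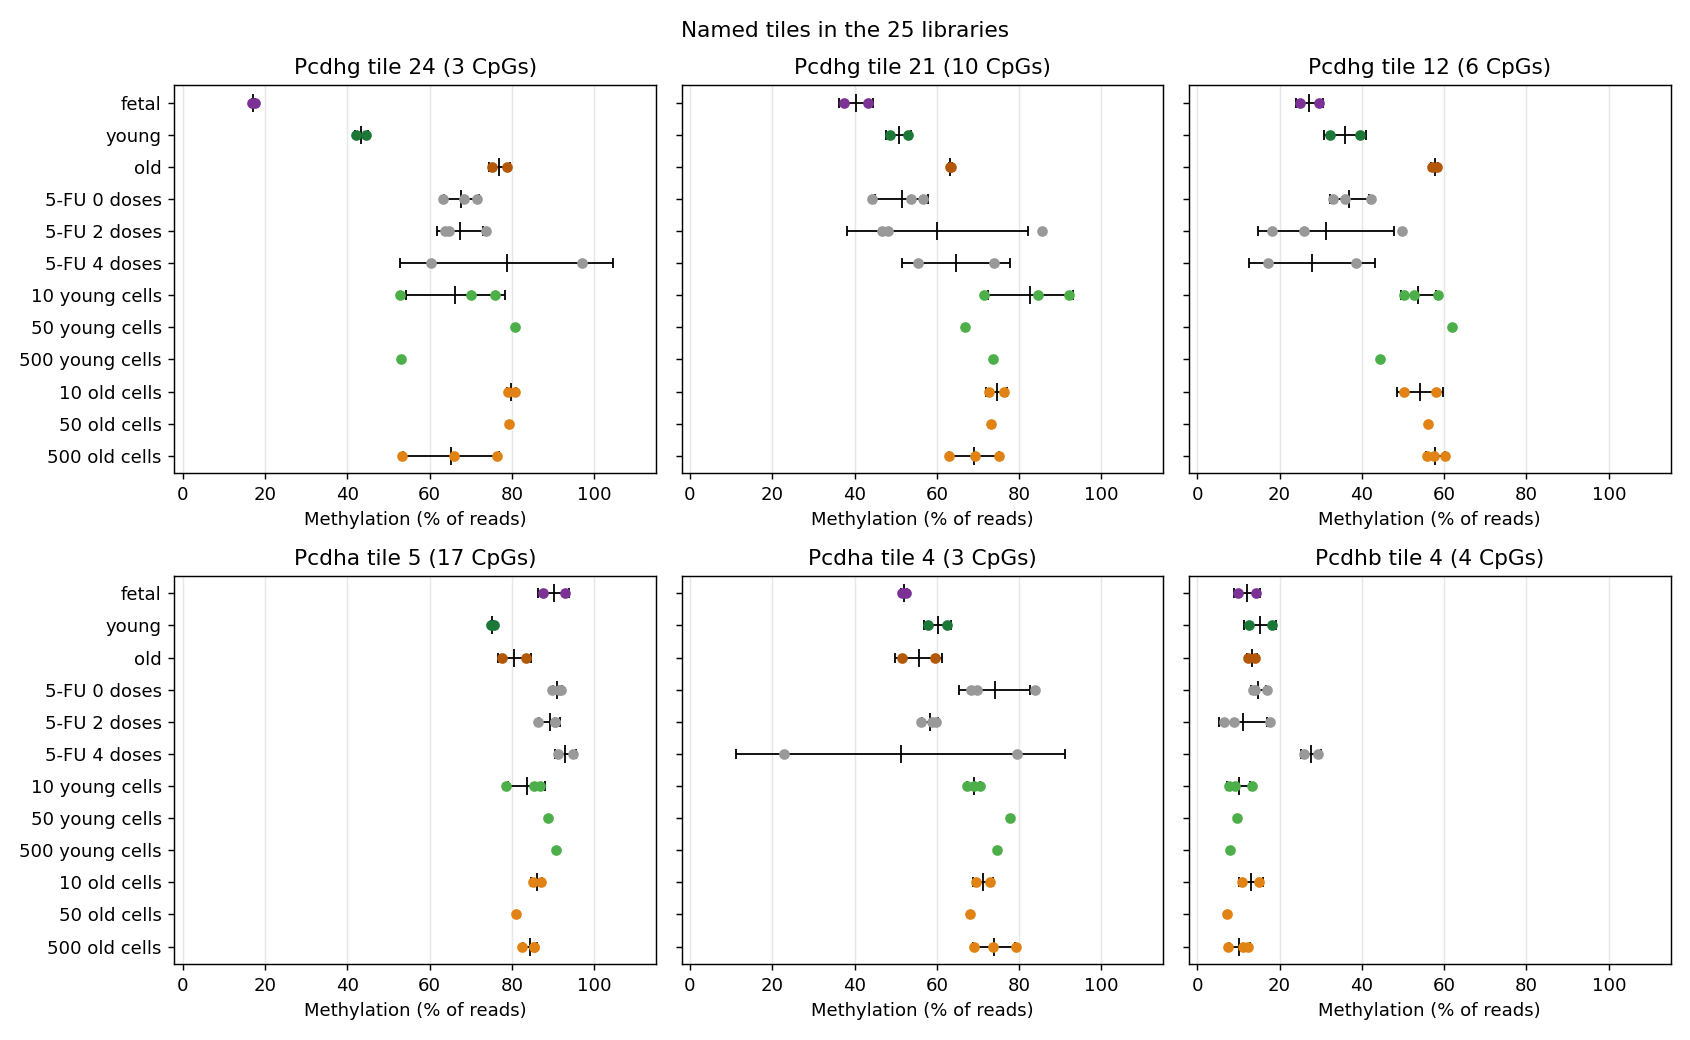
Methylation (% of reads, horizontal axis) of 6 tiles in each of the 25 libraries (points), with the group mean (tick) and SD (bar), over the CpGs common to all libraries. Pcdhg tile 24 reads 16.9% to 17.5% in fetal HSCs and at least 42.2% in all others, Pcdha tile 5 is lowest in young HSCs, and Pcdhb tile 4 is highest with 4 doses of 5-FU.

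Old and young donors were also compared with each other after transplantation. Of 92 region tiles 0 passed the quasi-binomial fit with the number of cells as a covariate (background 0.0% of 93599 tiles), and 0 passed limma, with 9 at an unadjusted p under 0.05 by each. The Pcdhg median was 1.07 points over 43 tiles. The largest difference, at chr18:37849001-37850000, was 15.5 points (adjusted p = 1.0), with libraries from 7.41% to 59.5% for young donors and 28.1% to 59.5% for old donors over 20 to 62 reads. A missed threshold does not show that the donors are alike.

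The change after 10 cells was also set against the donor's age. In Pcdhg it was 8.32 points in young donors and -0.70 points in old donors. Under the offset from the 4 very CpG-rich tiles both were below 0, at -10.6 and -7.79 points, and under that from 107 tiles they were 3.05 and -0.32 points. By an interaction term added after these levels were seen, 0 of 88 region tiles differed (background 0.00221% of 90382 tiles), with 13 at an unadjusted p under 0.05, of which 9 lay among the 40 Pcdhg tiles, where 4732 of all 90382 tiles were under it. The median of the difference between the changes was -7.18 points over 40 Pcdhg tiles and -1.07 points over all tiles. That difference takes in both the old and the young untransplanted libraries.

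Over all levels, the spread between replicate libraries was larger in the region than elsewhere, but not among tiles of middle level in every group. Over the 50 tiles, the median absolute difference between libraries of a group was 3.02 points in fetal, 4.23 points in young and 3.89 points in old HSCs. Over all tiles of the same range of CpG numbers it was 1.65, 1.49 and 1.79 points. With 4 doses of 5-FU, the group with the least covered library, it was 7.43 points in the region and 3.11 points elsewhere. Among tiles with a mean of 20% to 80%, the region's 33 tiles against 8100 in all, the spread was 3.44 against 4.69 points in fetal, 4.99 against 3.95 points in young and 5.74 against 4.48 points in old HSCs. It was 6.72 against 8.58 points with 0 doses, 9.59 against 9.17 points with 2 doses and 11.4 against 10.95 points with 4 doses. After transplantation it was lower in the region, at 5.92 against 8.06 points for 10 young, 3.72 against 6.04 points for 10 old and 5.62 against 6.81 points for 500 old cells. At 10 or more reads per CpG, 18 region tiles of middle level remained. The order then turned with 2 doses, at 7.45 against 9.01 points. With 4 doses the gap widened, at 16.3 against 10.4 points, and every other group kept its order.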

How the data were processed

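Each of the 25 deposited files lists CpGs with position, strand, methylated over total reads and a score; the authors' score is a whole number that equals the share of methylated reads times 1000, rounded down, and it was not used. The submitters' processing notes name mm9 as the genome build. For the aligner, methylation caller, read filters and duplicate handling, each step is not given in the sources used here. Library totals were 22835325 to 105187091 reads. Reads carry no molecular identifiers and are not independent molecules, so errors from read numbers cover counting error only.

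Methylated and total reads, as the authors deposited them, were summed per tile of 1000 bp over CpGs that reached 5 reads in all libraries of a fit, for tiles of 3 or more such CpGs on the 19 autosomes. A quasi-binomial model with Williams weights was fitted to fetal, young and old (6 libraries), to young and 5-FU (10), to untransplanted adult and transplanted (15) and to transplanted libraries alone (11). Dispersions were moderated by limma, with 3, 6, 7 and 8 residual and 16.5, 4.68, 9.74 and 5.34 prior degrees of freedom, and the p-values of an F test were adjusted (Benjamini-Hochberg) over all tiles. All of these fits except that to young and 5-FU libraries were tested on simulated reads. Where a left-out library leaves a group with 1 library, that library is assumed to vary like the others.

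The members, lists and comparisons were chosen with earlier results of these data known. Tiles named are, per comparison, up to 3 largest gains and 3 largest losses among called tiles whose groups do not overlap, or the largest difference where none is called; and per sub-cluster the tile with most CpGs and those with the largest and smallest range of group means. Promoter sequences were not used. Alternatives were 10 reads per CpG, tiles of 300 bp, CpGs over 500 reads left out, limma on arcsine-transformed levels, 1 fit of all libraries, a replicate block, 2 offsets per library and each library left out. Tools were Python 3.11.15, numpy 2.4.6, scipy 1.17.1, matplotlib 3.10.9 and pandas 2.3.3, with R 4.3.3 for limma 3.58.1.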

Additional observations from a re-analysis of the deposited data

Results flagged for a closer look

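The mean level of the whole region moved in opposite directions after transplantation of 10 cells from young and from old donors. All 3 libraries of 10 young cells lay 1.69 to 3.80 points above the mean of the young libraries, and both libraries of 10 old cells lay 4.04 to 2.31 points below the mean of the old libraries (changes of -4.04 and -2.31 points). The mean changes were 2.77 and -3.17 points, a difference of 5.94 points. Over all autosomal CpGs, the level changed by -3.27 points after 10 young cells and by -5.00 points after 10 old cells. Against that background, the region level was relatively higher after both. The difference of the region level itself was not tested. By sub-cluster, the changes were 8.32 and -0.70 points in Pcdhg, 0.39 and -2.27 points in Pcdha and -3.19 and -9.31 points in Pcdhb. Under the offset from the 4 very CpG-rich tiles, the Pcdhg changes were -10.6 and -7.79 points. Both donor ages are compared with untransplanted libraries whose region level differed by 5.84 points, while the libraries after 10 cells read 54.8% ± 1.06 (SD, n = 3) and 54.7% ± 1.22 (n = 2).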

How the results depend on the processing

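Counts of called region tiles were 5 (young minus fetal), 8 (old minus young), 14 (10 young cells minus young), 7 (10 old cells minus old) and 2 (500 old cells minus old), and 0 elsewhere. Limma on arcsine levels gave 2, 0, 12, 12 and 7, and 1 for 4 minus 0 doses. All 25 libraries in one fit gave 0, 0, 1, 0 and 0, with fewer tiles tested. At 10 or more reads young minus fetal had 3. In tiles of 300 bp, the counts were 5, 5, 6, 2 and 1. The planned offset per library, from 4 tiles of 30 or more CpGs, gave 4, 3, 41, 22 and 2, and Pcdhg differences of -3.37 (young minus fetal), -5.60 (old minus young), -5.60 (0 doses minus young), -10.6 (10 young cells) and -7.79 points (10 old cells). The offset from 107 tiles of 10 or more CpGs, added after seeing the data, gave 5, 1, 10, 3 and 1, and Pcdhg differences of 0.63 (old minus young), -0.97 (0 doses minus young) and 3.05 points (10 young cells). From summed reads, the region level differed by -1.45 (young minus fetal), 8.72 (old minus young), 2.08 (2 minus 0 doses), 4.84 (4 minus 0 doses), 4.58 (10 young cells) and 2.33 points (old minus young donors), against 1.11, 5.84, -0.83, 3.19, 2.77 and 0.53. The causes of these differences were not tested.

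Without 1 library at a time, the counts ranged from 2 to 4, 0 to 5, 0 to 10, 0 to 2 and 0 to 1 in the order above, and were 0 in the other comparisons. Named tiles kept their direction in every alternative fit that tested them, but in part this was fixed in advance. The direction was read from the levels, so limma and the replicate block could not change it. Where groups do not overlap, leaving out 1 library could not reverse it either. Of the values of named tiles with all libraries kept, 134 were unchanged, which takes in named tiles that had not been called and stayed so. With every CpG weighted equally and no test, unchanged means within the spread between libraries. Another 31 lost the call and 5 moved beyond the spread with CpGs weighted equally. With 1 library left out, 63 kept the call or stayed uncalled and 52 lost the call. The 63 thus overstates how often a called tile kept its call.

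With the replicate number as a block (replicate block), the counts were 3, 4, 12, 9 and 2, and 0 elsewhere. Same-numbered libraries correlated at -0.079 to 0.050 in their deviations, and for 2 minus 0 doses, the comparison with 3 shared numbers, at -0.012 to 0.033, so the numbers were not taken to pair the libraries; replicate 3 of 2 doses correlated best with another number. Depth limits the 5-FU comparisons most, with 51 region tiles tested.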
